A study of Mus musculus with 23 samples.

Results

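The Abca8 cluster is a row of 5 genes for A-subfamily ATP-binding cassette (ABC) transporters that lie side by side on mouse chromosome 11, Abca8b, Abca8a, Abca9, Abca6 and Abca5. All probes that the array annotation gives to one of these gene names were taken, which gave 13 of the 56605 probes on the array and 5 of 24812 genes with a symbol. The cluster was selected on measured values, the responses of Abca8b to pregnenolone 16α-carbonitrile (PCN), which had opposite signs in the genotypes. The PCN values of the cluster in each genotype, and their difference, are therefore given as a description, with no test read as support. Total RNA of ileum from 23 male mice was hybridised to single-colour Agilent arrays, 1 mouse per array. WT mice were C57BL/6J animals purchased at 6 weeks of age. Pxr-/- mice, which lack PXR (the pregnane X receptor, encoded by Nr1i2), were on the same background but came from a colony kept in house for 10 years, so genotype and breeding origin cannot be told apart. After 2 weeks of acclimatisation, mice of the PCN groups were injected intraperitoneally with 100 mg/kg of PCN, a steroid ligand of rodent PXR, in corn oil once per day for 4 days, and control (CONT) mice with the oil. All were killed at zeitgeber time 6 (ZT6), 6 h after the last dose. The labels give the mice as fed, whereas the paper on their liver calls this time of day semi-fasted. The WT PCN group had 5 arrays and each of the other groups (WT CONT, Pxr-/- CONT, Pxr-/- PCN) had 6, in 2 wash batches that each held all 4 groups.

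ABCA proteins are full-length membrane transporters that use ATP to move lipids. Abca1, the best known of the subfamily, loads cellular cholesterol onto apolipoprotein A-I. The Abca8-type genes form a separate branch of the subfamily that sits in this cluster alone. Abca8b and Abca8a are the mouse counterparts of human ABCA8, which has been linked to cholesterol efflux and high-density lipoprotein. Abca9 and Abca6 have been described as cholesterol-responsive genes of macrophages, and Abca5 as a transporter of endosomes and lysosomes. PXR is a nuclear receptor that turns on genes of drug metabolism, with Cyp3a11 as its standard target, and PCN is the ligand commonly used to activate it in mice.

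The sequences in front of Abca8b and Abca8a are shown because these neighbours differed in their PCN values, and because PXR and other nuclear receptors bind repeats of a short half-site. Of the 5 genes, 4 had an entry in the RefSeq promoter table (build GRCm38.p6), and Abca6 is only named. The window runs from 250 bases before to 50 bases after the start, and the 250 bases before the start are printed, with the minus strand read from 5′ to 3′. Capitals mark matches to the motifs searched. The printed stretch of Abca8b lies at chr11:109995846-109996095 and that of Abca8a at chr11:110095938-110096187.
Abca8b: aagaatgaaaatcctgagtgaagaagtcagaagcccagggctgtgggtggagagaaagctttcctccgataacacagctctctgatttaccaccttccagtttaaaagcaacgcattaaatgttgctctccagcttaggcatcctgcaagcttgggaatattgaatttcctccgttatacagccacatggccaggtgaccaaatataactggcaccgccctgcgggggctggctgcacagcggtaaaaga
Abca8a: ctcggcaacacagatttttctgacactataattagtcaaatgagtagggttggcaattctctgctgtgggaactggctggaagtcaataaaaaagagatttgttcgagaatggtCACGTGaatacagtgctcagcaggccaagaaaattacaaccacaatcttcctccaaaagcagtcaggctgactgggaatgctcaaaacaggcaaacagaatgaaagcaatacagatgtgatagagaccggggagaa

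Both strands of the 300-base windows were searched for the receptor half-site AGNTCA, for its direct repeats with a spacer of 3 bases (DR3) or 4 bases (DR4), for the everted repeat with 6 bases between (ER6), and for the E-box CACGTG. A half-site is part of each repeat, so these matches would overlap. Neither Abca8b nor Abca8a held a half-site or a repeat in this window. Abca9 held 1 half-site with its first base at -213, counted from the gene's start, and Abca5 held 1 at -183, both on the opposite strand. An E-box began at -136 of Abca8a, the stretch in capitals above. In Abca8b an E-box began at 19, past the start and outside the printed part. Of 32851 promoters of this length, 46.6% held a half-site, 0.07% a DR3, 0.125% a DR4, 0.0304% an ER6 and 7.15% an E-box. The share of G and C was 51.3% in Abca8b, 44.3% in Abca8a, 45.3% in Abca9 and 72.3% in Abca5, against a median of 52.7% over all promoters.

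All 13 probes lie on the minus strand of chromosome 11 (mm9, as the array annotation gives it). A probe was tested when, in some group, the scanner software called it well above background on 50% or more of the arrays. This kept 37591 probes, 7 of them from the cluster. Abca8b had 3 tested probes, at 109793891 to 109793950 (A_66_P138446), 109795589 to 109795648 (A_55_P1953846) and 109823091 to 109823150 (A_55_P2734697). Abca8a had 2, at 109886935 to 109886984 (A_51_P379385, for which the annotation places 50 of the 60 bases) and 109945491 to 109945550 (A_55_P2102769). Abca9 had 1 at 109962136 to 109962195 (A_55_P2062981) and Abca5 had 1 at 110130963 to 110131022 (A_52_P307961). These 7 probes were well above background on all 23 arrays and saturated on 0. The same 7 probes of the cluster are in the table deposited by the authors, and the value from that table is given beside each change.

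The longest run of bases shared by any pair of these 7 probes was 8, over 21 pairs. Probes of the same gene shared runs as short, 5 to 8 bases for Abca8b and 7 for Abca8a. Such runs therefore do not show whether a probe tells the neighbours apart, and binding of a probe to the neighbour's transcript was not tested. The stretches of a probe of Abca8b and a probe of Abca8a that read without a stop codon are shown. The first is 48 of the 60 bases of A_55_P2734697, and the second is all 60 bases of A_55_P2102769.
Abca8b: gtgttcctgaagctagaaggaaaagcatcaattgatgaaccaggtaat
Abca8a: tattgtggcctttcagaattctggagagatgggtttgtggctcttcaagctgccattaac
The 2 other tested probes of Abca8b, A_66_P138446 and A_55_P1953846, each contain the polyadenylation signal aataaa. Read from the first bases of A_55_P1953846, no frame ran for more than 33 bases before its first stop codon. The annotation ties A_55_P1953846 to the transcript NM_013851, A_66_P138446 to ENSMUST00000020948 and A_55_P2734697 to AK138196. Whether these transcripts differ in their response was not tested.

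As a check of treatment, the main PXR target Cyp3a11 was 3.53 higher in WT PCN than in WT CONT on the log2 scale (SE 0.321, limma adjusted p 1.21e-06) and differed by -0.05 in Pxr-/- mice (SE 0.305, adjusted p 0.947). The probe of Nr1i2 was 0.44 lower in Pxr-/- than in WT averaged over treatments (SE 0.106, adjusted p 0.0405), with overlapping ranges, so it does not check the genotype labels. The median spot signal was 74 to 106.5 per array, the local background 19 to 28.5, and 60.9% to 67.3% of the probes were well above background. All 12 markers of ileal epithelium were above background, with a summed linear signal of 1074226 to 1378530 per array.

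Abca8b was lower with PCN in WT and higher with PCN in Pxr-/- mice at all 3 of its probes. At the brightest probe, A_55_P1953846, the log2 signal in WT CONT ran from 7.58 to 8.41 (median 7.99, n = 6). The WT PCN arrays gave 6.95, 7.37, 7.49, 7.55 and 7.85. In Pxr-/- CONT it ran from 7.48 to 7.83 (median 7.68, n = 6), and in Pxr-/- PCN from 7.92 to 8.48 (median 8.17, n = 6). Of the WT PCN arrays, 4 of 5 lay under every WT CONT array and 5 of 5 under the WT CONT mean, while 6 of 6 Pxr-/- PCN arrays lay over every Pxr-/- CONT array. The change with PCN was -0.54 in WT (SE 0.136, 1.45-fold lower, -0.53 in the deposited table) and 0.50 in Pxr-/- mice (SE 0.129, 1.42-fold higher, 0.50 in the deposited table). The change in Pxr-/- minus that in WT was 1.05 (SE 0.188, 1.04 in the deposited table).

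The second probe of Abca8b, A_66_P138446, had the narrowest spread. WT CONT ran from 6.97 to 7.21 (median 7.03, n = 6) and WT PCN gave 6.67, 6.81, 6.83, 6.84 and 6.84. Pxr-/- CONT ran from 6.92 to 7.22 (median 7.04, n = 6) and Pxr-/- PCN from 7.09 to 7.46 (median 7.42, n = 6). Here 5 of 5 WT PCN arrays lay under every WT CONT array, and 4 of 6 Pxr-/- PCN arrays over every Pxr-/- CONT array. The PCN minus CONT difference was -0.26 in WT (SE 0.0773, -0.26 in the deposited table) and 0.30 in Pxr-/- mice (SE 0.0735, 0.30 in the deposited table), which left 0.57 between the genotypes (SE 0.107, 0.56 in the deposited table).

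The third probe, A_55_P2734697, followed the same order with more scatter. WT CONT ran from 6.62 to 7.23 (median 6.87, n = 6), WT PCN gave 6.18, 6.31, 6.37, 6.39 and 6.77, Pxr-/- CONT ran from 6.58 to 7.14 (median 6.73, n = 6) and Pxr-/- PCN from 6.68 to 7.39 (median 6.96, n = 6). Of the arrays, 4 of 5 WT PCN lay under all WT CONT, whereas 2 of 6 Pxr-/- PCN lay over all Pxr-/- CONT. With PCN the shift was -0.48 in WT (SE 0.143, -0.48 in the deposited table) and 0.24 in Pxr-/- mice (SE 0.136, 0.23 in the deposited table), a difference of 0.72 (SE 0.197, 0.71 in the deposited table). Without Pxr-/- PCN replicate 1 the Pxr-/- value of this probe was 0.15. WT PCN was the lowest group at each of the 3 probes and Pxr-/- PCN the highest, with both CONT groups between them.

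**Figure D1:**
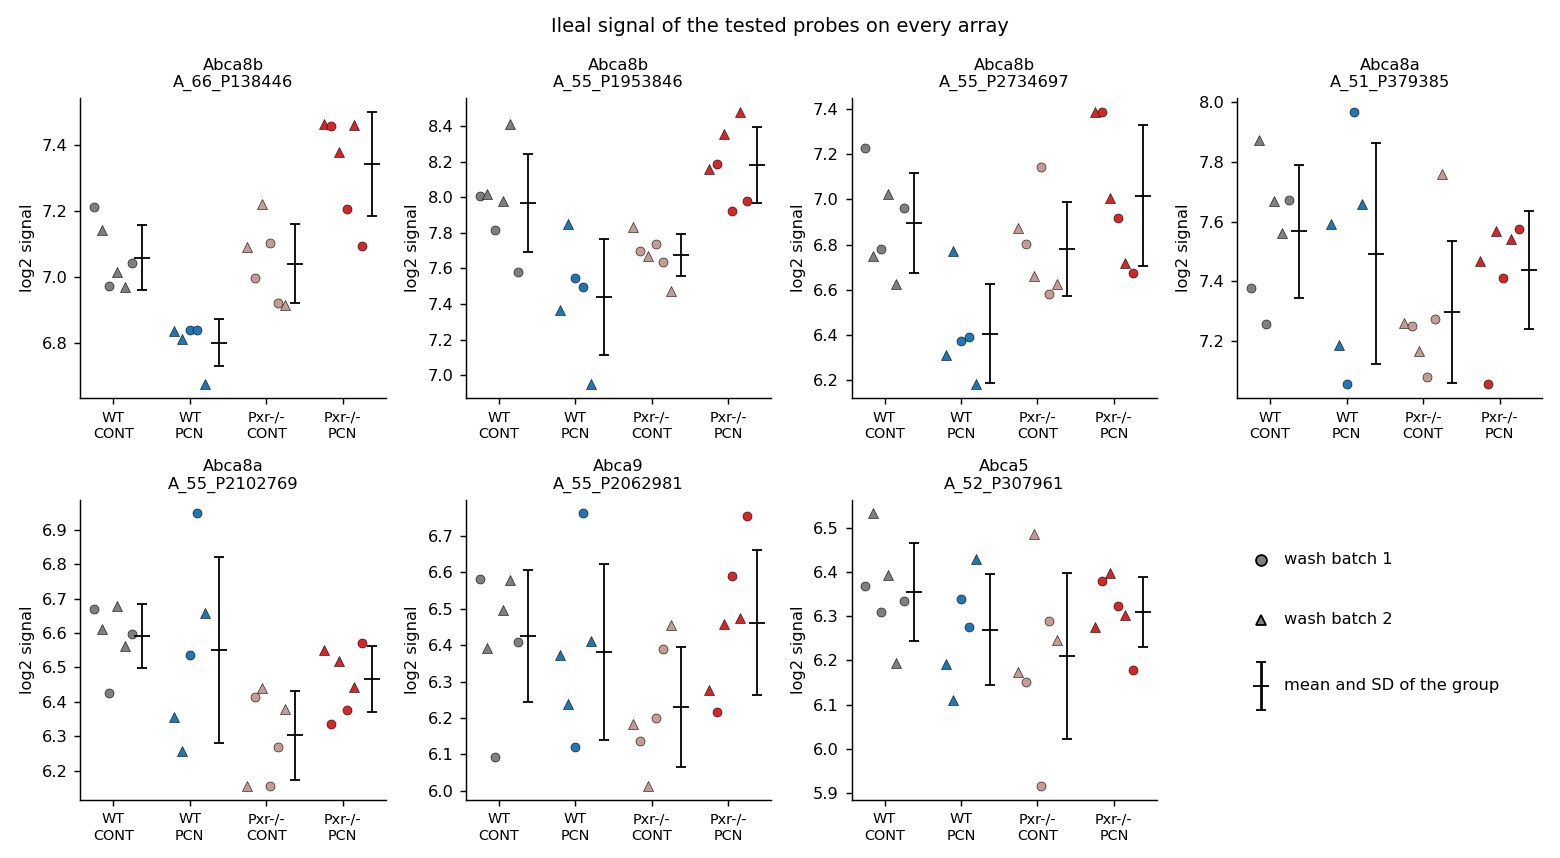
Each panel plots the log2 signal (y axis) of 1 tested probe on the 23 arrays by group (x axis), circles for wash batch 1 and triangles for wash batch 2, with the group mean and SD to the right of the points. In the 3 Abca8b panels the WT PCN points sit lowest, with means of 6.80, 7.44 and 6.41, and the Pxr-/- PCN points highest, with means of 7.34, 8.18 and 7.02, with some overlap between groups in every panel.

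Over all 37591 tested probes, every WT PCN array lay under every WT CONT array for 1.16%, every Pxr-/- PCN array lay over every Pxr-/- CONT array for 1.23%, and 0 probes (0%) did both. Probes with every Pxr-/- PCN array over every WT PCN array made up 0.333%, and A_55_P1953846 and A_66_P138446 were among them. A call was an adjusted p of at most 0.05 with a fold change above 1.5. This was met by 0.689% of all tested probes for PCN in WT, 0.939% for PCN in Pxr-/- mice and 0.0771% for the difference between the PCN effects. These contrasts chose the cluster, so no call is given for its probes, and nothing is read from the counts of arrays above.

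The 3 probes of Abca8b kept their direction in both genotypes under each of 38 alternatives. Wash batch 1 held 2 WT PCN arrays and wash batch 2 held 3. In wash batch 1 alone the brightest probe gave -0.28 in WT and 0.34 in Pxr-/- mice (difference 0.62, SE 0.186), and in wash batch 2 alone -0.75 and 0.67 (difference 1.42, SE 0.285). At A_66_P138446 the difference was 0.48 (SE 0.178) in batch 1 and 0.63 (SE 0.141) in batch 2. At A_55_P2734697 it was 0.76 (SE 0.293) and 0.70 (SE 0.265). The size at the brightest probe thus moved by over 1.5 times between batches in WT, in Pxr-/- mice and in their difference, with the direction kept. Leaving out 1 array at a time gave -0.63 to -0.40 in WT and 0.45 to 0.55 in Pxr-/- mice at that probe, the weakest WT value being that without WT PCN replicate 5.

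**Figure D2:**
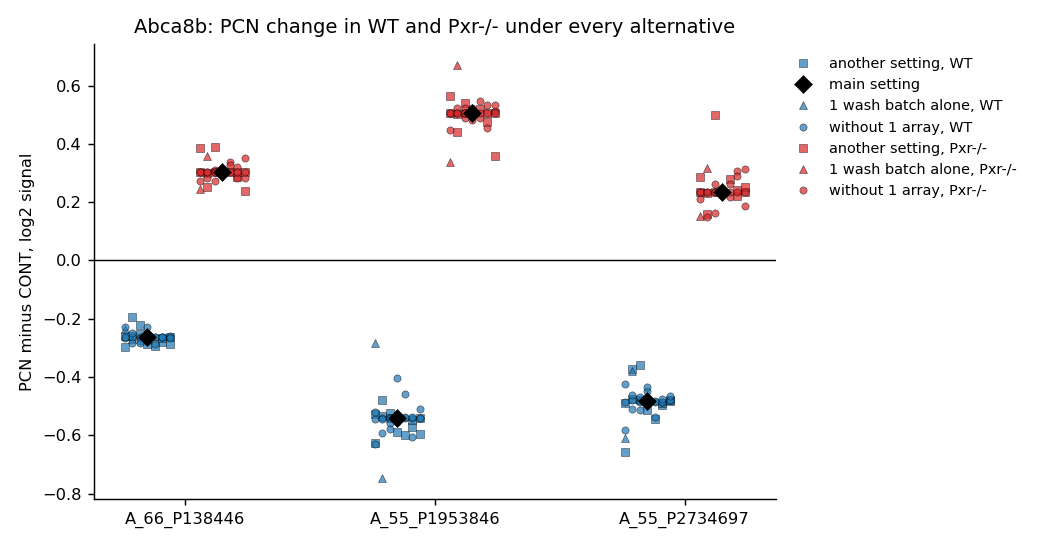
The y axis is the PCN minus CONT change in log2 signal for the 3 Abca8b probes (x axis), blue in WT and red in Pxr-/- mice, with black diamonds for the main setting, circles for fits without 1 array, triangles for 1 wash batch alone and squares for other settings. No blue point reaches 0 (-0.75 to -0.19) and no red point does (0.15 to 0.67).

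Abca8a, the close relative and next neighbour of Abca8b, had smaller PCN values. At A_51_P379385 the log2 signal ran from 7.26 to 7.87 in WT CONT (median 7.62, n = 6). WT PCN gave 7.06, 7.19, 7.59, 7.66 and 7.97. Pxr-/- CONT ran from 7.08 to 7.76 (median 7.26, n = 6) and Pxr-/- PCN from 7.06 to 7.58 (median 7.51, n = 6). All 4 groups overlapped. The change was -0.09 in WT (SE 0.143, -0.09 in the deposited table) and 0.14 in Pxr-/- mice (SE 0.136, 0.14 in the deposited table), a difference of 0.23 (SE 0.198, 0.23 in the deposited table). At A_55_P2102769 it was -0.04 in WT (SE 0.0972, -0.03 in the deposited table) and 0.16 in Pxr-/- mice (SE 0.0924, 0.16 in the deposited table), a difference of 0.20 (SE 0.134, 0.20 in the deposited table). The WT PCN arrays of this probe spread from 6.26 to 6.95, around the WT CONT range of 6.43 to 6.68, and 4 of 6 Pxr-/- PCN arrays (6.33 to 6.57) lay over all Pxr-/- CONT arrays (6.15 to 6.44).

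Abca9 was measured by A_55_P2062981, with WT CONT from 6.09 to 6.58 (median 6.45, n = 6), WT PCN at 6.12, 6.24, 6.37, 6.41 and 6.76, Pxr-/- CONT from 6.01 to 6.46 (median 6.19, n = 6) and Pxr-/- PCN from 6.22 to 6.75 (median 6.47, n = 6). No WT PCN array lay under all WT CONT arrays, that is 0 of 5, and 4 of 6 Pxr-/- PCN arrays lay over all Pxr-/- CONT arrays. The PCN minus CONT difference was -0.04 in WT (SE 0.118, -0.04 in the deposited table) and 0.23 in Pxr-/- mice (SE 0.112, 0.23 in the deposited table), a difference of 0.27 (SE 0.163, 0.27 in the deposited table). Its other probe, A_52_P314217, was above background on 0 arrays.

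Abca5 was measured by A_52_P307961 and overlapped in all groups, with WT CONT from 6.19 to 6.53 (median 6.35, n = 6), WT PCN at 6.11, 6.19, 6.28, 6.34 and 6.43, Pxr-/- CONT from 5.92 to 6.49 (median 6.21, n = 6) and Pxr-/- PCN from 6.18 to 6.40 (median 6.31, n = 6). The change was -0.09 in WT (SE 0.0836, -0.09 in the deposited table) and 0.10 in Pxr-/- mice (SE 0.0795, 0.10 in the deposited table), a difference of 0.19 (SE 0.115, 0.19 in the deposited table). Its 3 further probes were not tested. A_52_P51671 was above background on 1 WT CONT, 2 Pxr-/- CONT and 2 Pxr-/- PCN arrays, A_65_P01526 on 1 WT PCN, 1 Pxr-/- CONT and 2 Pxr-/- PCN arrays, and A_52_P609509 on 0.

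Abca6 was not well above background. Its probe A_52_P508920 passed on 0 arrays and A_55_P2493443 on 1, of Pxr-/- PCN, so no change is given for this gene. Group means of these probes lay between 4.77 and 4.97 on the log2 scale. Levels of different probes are not compared here, because the response of a spot depends on its sequence.

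**Figure D3:**
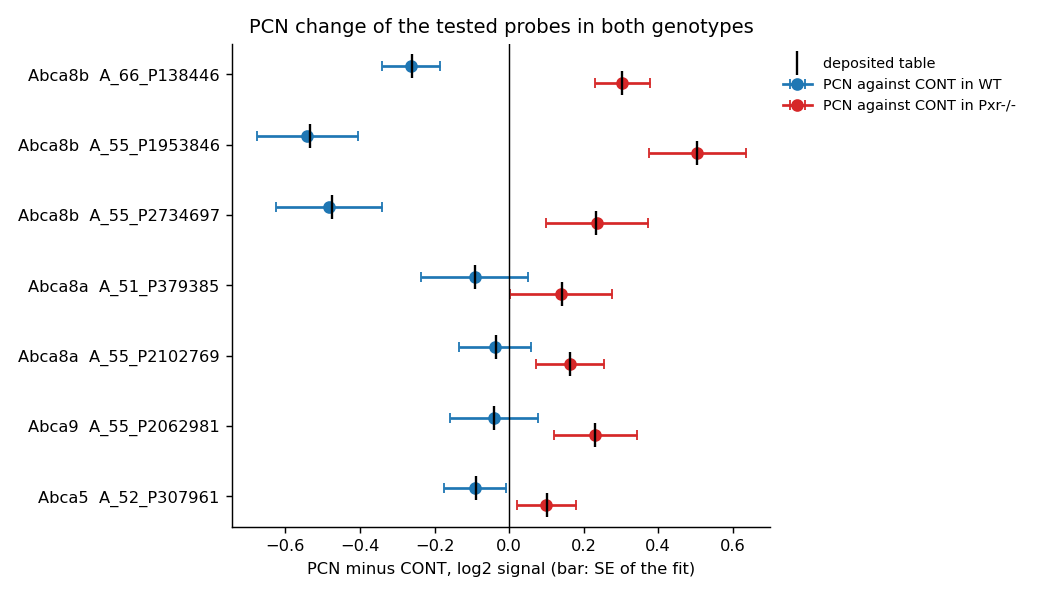
The x axis is the PCN minus CONT change in log2 signal for each of the 7 tested probes (y axis, in cluster order), blue in WT and red in Pxr-/- mice, with bars for the SE of the fit and a black tick for the change in the deposited table. The 7 blue values run from -0.54 to -0.04 and the 7 red values from 0.10 to 0.50, with the Abca8b probes farthest apart.

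All 7 probes of the cluster had a change under 0 in WT, as 55.4% of all tested probes had, and over 0 in Pxr-/- mice, as 46.8% had, and 17.8% of all probes had both signs. The median change of the 7 probes was -0.09 in WT and 0.23 in Pxr-/- mice, against -0.02 and -0.01 over all tested probes. The rule fixed the sign for Abca8b only, and 3 of the 7 probes are of that gene. The signs of Abca8a and Abca9 did not hold under every alternative. In wash batch 1 alone, the WT changes of Abca8a were 0.08 (A_51_P379385) and 0.18 (A_55_P2102769), and that of Abca9 was 0.08. At A_51_P379385 of Abca8a the WT change was 0.00 without WT PCN replicate 2 and 0.01 without replicate 3, at Abca9 it was 0.04 without replicate 3, and at A_55_P2102769 of Abca8a it was 0.01 without WT PCN replicate 1 and 0.03 without WT PCN replicate 2. Abca5 kept both signs under the 38 alternatives (-0.13 to -0.03 in WT, 0.02 to 0.17 in Pxr-/- mice).

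Averaged over treatments, the genotype difference shares little with the PCN contrasts (design correlations of -0.069, 0 and 0.05), so it was tested. It uses the same arrays and the same estimate of spread as those contrasts. At A_66_P138446 it joins -0.02 without PCN and 0.55 with PCN, so it is not read as support for the choice of Abca8b. A_66_P138446 of Abca8b was 0.27 higher in Pxr-/- than in WT mice (SE 0.0534, limma p 5.61e-05, adjusted p 0.0115). At a fold of 1.20 it was not called, and 1.21% of all probes passed the adjusted p alone. The other 2 Abca8b probes were 0.23 (SE 0.0938, adjusted p 0.346) and 0.25 higher (SE 0.0987, adjusted p 0.334). Both Abca8a probes were lower in Pxr-/- mice, by -0.15 (A_51_P379385, SE 0.0989, adjusted p 0.669) and -0.19 (A_55_P2102769, SE 0.0671, adjusted p 0.234). Without WT PCN replicate 4, the value of A_51_P379385 was -0.07. Abca9 differed by -0.06 (SE 0.0813, adjusted p 0.906) and Abca5 by -0.05 (SE 0.0577, adjusted p 0.875). Of the 7 probes, 0 were called (0.396% of all probes), and 4 had an unadjusted p of at most 0.05 (10.3% of all probes), the 3 of Abca8b and A_55_P2102769 of Abca8a. Within batches A_66_P138446 gave 0.17 (adjusted p 0.628) and 0.35 (adjusted p 0.126). Over the alternatives that used both batches its adjusted p ran from 0.00389 to 0.0550, the highest with slide as a fixed block in place of the wash batch.

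The average hides unlike values with and without PCN, which share arrays with the PCN contrasts and are given without a test. Without PCN, Abca8b in Pxr-/- minus WT was -0.29 at the brightest probe (SE 0.129), -0.02 at A_66_P138446 (SE 0.0735) and -0.11 at A_55_P2734697 (SE 0.136). With PCN it was 0.75 (SE 0.136), 0.55 (SE 0.0773) and 0.60 (SE 0.143) in the same order, fold differences of 1.69, 1.46 and 1.52. Abca8a had -0.27 (SE 0.136) and -0.29 (SE 0.0924) without PCN and -0.04 (SE 0.143) and -0.09 (SE 0.0972) with PCN, a shift of the same sign but smaller, which stayed under 0. Abca9 went from -0.19 (SE 0.112) to 0.08 (SE 0.118) and Abca5 from -0.15 (SE 0.0795) to 0.05 (SE 0.0836).

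In whole tissue, fewer cells of a type and less RNA per cell cannot be told apart, so the markers of the cell types in the ileal wall are given beside these values. Fibroblast markers were higher with PCN in Pxr-/- mice at 16 of 16 genes, of which 6 were called up, among them Col1a1 (1.04, SE 0.227, limma adjusted p 0.0151), Pi16 (0.91, SE 0.236, adjusted p 0.0349), Lum (0.82, SE 0.149, adjusted p 0.00483) and Col3a1 (0.81, SE 0.198, adjusted p 0.0256). Some of these calls in Pxr-/- mice did not hold without single arrays, since of 23 fits without 1 array 9 lost the call of Pi16 and 4 that of Col3a1, and 0 those of Col1a1 and Lum. In WT they were higher at 14 of 16, of which 1 was called (Lum, 0.70, SE 0.156, adjusted p 0.0219), a call lost in 5 of 23 such fits. Of all other genes, taken by the brightest tested probe, 1.47% were called for PCN in Pxr-/- mice and 1.05% in WT. The summed linear signal of the fibroblast markers was 93827 to 108858 in WT CONT, 83675 to 154221 in WT PCN, 73099.8 to 109489 in Pxr-/- CONT and 109367 to 166365 in Pxr-/- PCN. The median marker value was 0.18 in WT and 0.58 in Pxr-/- mice. For the difference between the PCN effects it was 0.24, with 15 of 16 genes over 0. Over all tested probes, 46.8% were over 0 for PCN in Pxr-/- mice. Such one-sided signs were not particular to fibroblasts. Smooth muscle markers were over 0 at 10 of 10 genes for the difference, and macrophage markers at 10 of 10 for PCN in Pxr-/- mice. Endothelial markers were higher at 10 of 10 for PCN in WT, with a median of 0.21. Ileal epithelium markers were higher at 5 of 12 in Pxr-/- mice. The part of fibroblast content in the values of Abca8b was not tested.

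Smooth muscle markers had 3 of 10 called up with PCN in Pxr-/- mice, Actg2 (0.67, SE 0.161, limma adjusted p 0.0230), Cnn1 (0.67, SE 0.147, adjusted p 0.0153) and Tagln (0.59, SE 0.134, adjusted p 0.0181), and 0 in WT, where 5 had an unadjusted p under 0.05. Cd68, a lysosomal protein of macrophages, was the 1 called of 10 macrophage markers in Pxr-/- mice (0.60, SE 0.116, adjusted p 0.00716), with 0 in WT, and an unadjusted p under 0.05 was found for 6 in Pxr-/- mice and 2 in WT. Msln of the mesothelium was the 1 called of 6 in both genotypes (0.99, SE 0.207, adjusted p 0.0133 in WT, and 0.74, SE 0.197, adjusted p 0.0397 in Pxr-/- mice). In Pxr-/- mice, leaving out 1 array lost the call of Msln in 7 of 23 fits, of Cd68 in 7, of Tagln in 5, of Actg2 in 3 and of Cnn1 in 1. The fit without Pxr-/- PCN replicate 5 lost all of these and those of Pi16 and Col3a1. Markers of adipocytes, enteric glia, endothelium and ileal epithelium had 0 called by their brightest probe in either genotype, with 1, 2, 5 and 3 genes at an unadjusted limma p under 0.05 in WT and 2, 1, 4 and 4 in Pxr-/- mice. With any probe of a gene counted, 1 of ileal epithelium was called in Pxr-/- mice. None of the 8 marker lists had a gene called for the difference between the PCN effects (0.113% of genes) or the genotype average. For the latter, Actg2 gave 0.45 (SE 0.117, limma adjusted p 0.0587), which also lies under the fold threshold.

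With the mean log2 level of the fibroblast markers as a covariate, the difference between the PCN effects was 1.06 (SE 0.200), 0.61 (SE 0.109) and 0.86 (SE 0.186) for A_55_P1953846, A_66_P138446 and A_55_P2734697 of Abca8b. With the smooth muscle markers it was 0.96 (SE 0.182), 0.53 (SE 0.107) and 0.73 (SE 0.208). With the fibroblast covariate, the PCN changes of Abca8a in Pxr-/- mice went from 0.14 to -0.26 and from 0.16 to -0.02. That of Abca9 went from 0.23 to -0.08, and those of the Abca8b probes became 0.54, 0.39 and 0.50. The covariate itself moved with PCN, from a group mean of 11.38 in Pxr-/- CONT to 11.91 in Pxr-/- PCN. A fit with it therefore does not separate cell content from RNA per cell. The part of these cell types in the values of Abca8a, Abca9 and Abca8b was not tested.

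The likeness of the members across the 23 arrays is given as a description, since these arrays share groups and batches. The 3 probes of Abca8b had a Pearson r of 0.61 to 0.76 with each other. Abca8a and Abca9 had an r of 0.72 and 0.57, and the 2 Abca8a probes one of 0.67. Between Abca8b and Abca8a, r was -0.30 to -0.05. Abca5 fell on neither side, with an r of 0.30 and 0.51 with Abca8a, 0.05 with Abca9 and -0.06 to 0.21 with Abca8b. With group means and batch taken out, r was 0.25 to 0.58 among the Abca8b probes, 0.77 and 0.49 between Abca8a and Abca9, and -0.43 to 0.00 between Abca8b and Abca8a.

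The genes most like the brightest probe of each member were taken by the same r over 23 arrays. For Abca8a they were Htra3 (0.90), Mageh1 (0.85) and Itga11 (0.84), and for Abca9 they were Bmp7 (0.87), Pnliprp2 (0.84) and Lama2 (0.83). For Abca8b they were Camk1d (0.77), a calmodulin-dependent kinase, Fahd1 (0.71) and Gm2115 (0.69), and for Abca5 they were Glp2r (0.75), the receptor for glucagon-like peptide 2, 8430426J06Rik (0.71) and Lancl3 (0.68). The genes most like Abca8b were chosen for its pattern, so their PCN values carry no test. These were -0.36 in WT and 0.23 in Pxr-/- mice for Camk1d (SE 0.0976 and 0.0928), -0.20 and 0.24 for Fahd1 (SE 0.129 and 0.123), and -0.48 and 0.15 for Gm2115 (SE 0.154 and 0.147).

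The genes on either side of the cluster are not ABC transporters and were compared by their brightest probe. Of the 10 nearest genes on each side in the RefSeq gene order, 18 were tested, and 0 were called in any contrast, with 1 at an unadjusted limma p under 0.05 for PCN in WT, 1 in Pxr-/- mice, 0 for the difference and 1 for the genotype average. Fam20a, the nearest before Abca8b, which encodes a secretory-pathway protein, gave 0.22 with PCN in WT (SE 0.166, limma adjusted p 0.667) and 0.11 in Pxr-/- mice (SE 0.158, adjusted p 0.753). Map2k6, a kinase of the p38 pathway and the nearest gene after Abca5, gave -0.07 (SE 0.0975, adjusted p 0.851) and 0.02 (SE 0.0927, adjusted p 0.948). For the difference between the PCN effects these genes gave -0.11 (SE 0.230, adjusted p 0.999) and 0.09 (SE 0.135, adjusted p 0.999). The median of the 18 genes was -0.04 in WT and 0.05 in Pxr-/- mice, against -0.02 and 0.00 over all genes.

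**Figure D4:**
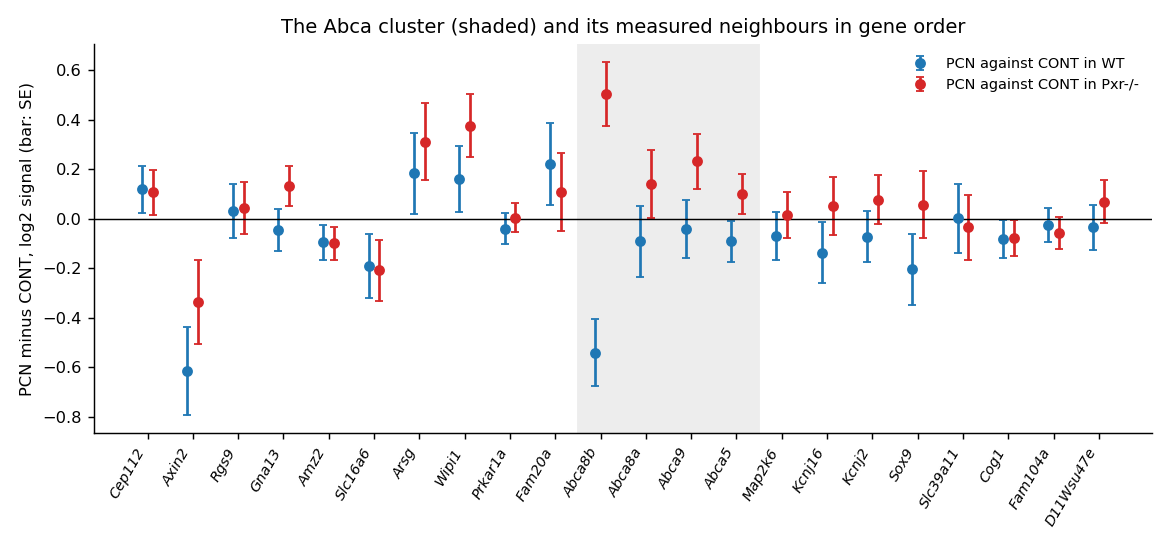
The y axis is the PCN minus CONT change in log2 signal by the brightest tested probe, with SE bars, for the cluster (shaded) and its measured neighbours in gene order (x axis), blue in WT and red in Pxr-/- mice. Abca8b, at -0.54 and 0.50, is the gene whose values lie farthest apart, while Fam20a before it and Map2k6 after the cluster lie at 0.22 and 0.11 and at -0.07 and 0.02.

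The other ABCA transporters are the nearest family to compare. Of 11 on the array, 8 were tested. For PCN in WT 1 was called up, Abca1, by 0.85 (SE 0.129, limma adjusted p 0.000665), which has the opposite sign to Abca8b. In Pxr-/- mice Abca1 gave 0.49 (SE 0.123, adjusted p 0.0291), under the fold threshold, and the difference was -0.36 (SE 0.179, adjusted p 0.999). Averaged over treatments Abca1 was 0.59 lower in Pxr-/- mice (-0.59, SE 0.0893, adjusted p 0.000660), the 1 called of the 8. Abca12, a lipid transporter of keratinocytes named after its values were seen, was 0.85 in Pxr-/- minus WT (SE 0.214, adjusted p 0.0510), and 0.85 in the deposited table (adjusted p 0.0377). The median change of the 8 genes was 0.04 in WT and 0.08 in Pxr-/- mice.

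Of 18 genes of cholesterol efflux and high-density lipoprotein, 0 were called for PCN in WT or in Pxr-/- mice or for the difference, where 4, 7 and 5 had an unadjusted limma p under 0.05. This list does not hold Abca1, which is counted above with the ABCA transporters and was called for PCN in WT and for the genotype average. Abcg5 and Abcg8, which together pump sterols into the gut lumen, were called lower in Pxr-/- than in WT mice averaged over treatments (-0.63, SE 0.0790, adjusted p 5.72e-05, and -0.65, SE 0.138, adjusted p 0.0173), the 2 called of the 18, where 0.615% of all genes were called. PCN in WT gave 0.53 for Abcg5 (SE 0.114, adjusted p 0.0176, under the fold threshold) and 0.73 for Abcg8 (SE 0.200, adjusted p 0.0807). In Pxr-/- mice these were -0.06 (SE 0.109, adjusted p 0.807) and 0.36 (SE 0.190, adjusted p 0.299). Abcg4, a sterol transporter named after its values were seen, had an adjusted p of 3.96e-05 for PCN in WT (0.53, SE 0.0634) and of 0.0229 for the difference (-0.49, SE 0.0874), both under the fold threshold. Of 16 genes of sphingolipid synthesis, 0 were called by their brightest probe in any of the 4 contrasts, with 3 genes at an unadjusted p under 0.05 for PCN in WT and 8 in Pxr-/- mice. With any probe of a gene counted, 1 was called for PCN in Pxr-/- mice.

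The classical PXR targets gave the scale of the receptor's response. For PCN in WT 10 of 11 tested genes were called up, with a median change of 2.23, and 1 of 11 in Pxr-/- mice, the efflux pump gene Abcb1a (1.07, SE 0.166, adjusted p 0.00138), named here after its value was seen. The median in Pxr-/- mice was 0.56, and 0.28 when all probes of a gene were used. Here 7 genes were higher and 4 lower, and an unadjusted limma p under 0.05 was found for 7 of the 11. For the difference between the PCN effects 5 of 11 were called, all negative, with Cyp2b10 at -3.89 (SE 0.496, limma adjusted p 0.000875), Cyp3a44 at -3.11 (SE 0.562, adjusted p 0.0249) and Cyp3a11 at -3.58 (SE 0.443, adjusted p 0.000875). The others were Ces2a at -1.95 (SE 0.269, adjusted p 0.00182) and Akr1b7 at -1.39 (SE 0.221, adjusted p 0.00713), also named after their values were seen. Cyp2c55, another PXR-induced P450, rose by 3.51 in WT (SE 0.469, adjusted p 0.000155), and its value in Pxr-/- mice was 1.58 (SE 0.446, adjusted p 0.0502), which was called in 8 of 23 fits without 1 array and under 6 other alternatives. For Cyp3a25 the change was 2.23 in WT (SE 0.393, adjusted p 0.00299) and 0.77 in Pxr-/- mice (SE 0.374, adjusted p 0.259). The difference at the brightest Abca8b probe, 1.05, had the opposite sign and was smaller in size than each of the 5.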

How the data were processed

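RNA from mouse ileum was labelled with Cy3 and hybridised to 23 arrays of 62976 spots. The raw files hold intensity values deposited by the authors as Agilent Feature Extraction 10.10.1.1 wrote them, and the authors also deposited a table on the log2 scale, with 37161 probes left by their filter, wash batch correction and normalization (CrossNorm). Its arrays all share the same quantiles. From the raw files, the log2 of the median signal was taken without background subtraction, control spots were dropped and outlier spots set missing (61 missing values after averaging), arrays were quantile normalized, and probes were kept when well above background on 50% or more of the arrays of some group. Linear models with 4 groups and wash batch were fitted to 37591 probes in R 4.3.3 by limma 3.58.1, with version 1.17.8 of data.table to read files, which left 18 residual degrees of freedom, and Benjamini-Hochberg adjustment ran over all these probes. The median SE of a contrast was 0.0706 to 0.141. The study describes these methods for the liver of the same experiment. Each array is 1 mouse, and of 6 mice allocated to WT PCN 5 arrays were analysed here. The number of arrays limits the precision.

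The members and gene lists were chosen with earlier results of these data known. Named were all members, Nr1i2 and Cyp3a11 as checks, Abca1 and the nearest measured neighbours, up to 4 called genes per list by size, and the 3 genes most like the brightest probe of each member. A gene with several probes was taken by the brightest in lists. Gene names came from the annotation, updated by accession for 32989 probes. The fit was tested on simulated data. Alternatives covered background correction, scaling, filter, batch and slide terms, samples, covariates, thresholds and the deposited table. Exon and UTR status of the probes was not analysed here.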

Additional observations from a re-analysis of the deposited data

Results flagged for a closer look

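At A_66_P138446 of Abca8b, WT PCN replicate 5 read 6.67 on the log2 scale, apart from the other 4 arrays of its group at 6.81 to 6.84. At A_51_P379385 of Abca8a, Pxr-/- CONT replicate 6 read 7.76, above the rest of its group, and Pxr-/- PCN replicate 2 read 7.06, below the rest of its group. Each of these arrays passed the 95% limit of Dixon's test for a single stray value, in 3 of 28 groups of arrays checked, where chance alone gives about 1 in 20.

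The PCN effect of Abca8b had opposite signs in the genotypes, with every array on its own side of its CONT mean, at A_66_P138446 (difference 0.57) and at A_55_P1953846 (difference 1.05). These differences chose the gene, so a test of them supports nothing and none is given here. Among the PXR targets, the difference between the PCN effects was tested with limma and called for Cyp3a11 (-3.58, adjusted p 0.000875), Cyp2b10 (-3.89, adjusted p 0.000875) and Cyp3a44 (-3.11, adjusted p 0.0249).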

How the results depend on the processing

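Across 38 alternatives, 23 of which left out 1 array, the direction of all 3 Abca8b probes was kept in both genotypes and in their difference. At A_55_P1953846 of Abca8b the size moved most with the wash batch, to -0.28 in WT and a difference of 0.62 in batch 1 alone, and to a difference of 1.42 in batch 2 alone, and the cause was not tested. Leaving out 1 array gave -0.63 to -0.40 in WT, 0.45 to 0.55 in Pxr-/- mice, 0.91 to 1.13 for the difference and 0.16 to 0.27 for the genotype average. The genotype average of Abca5 turned from -0.05 to 0.00432 in wash batch 2 alone. With the replicate block, A_55_P1953846 of Abca8b gave -0.59 in WT, 0.50 in Pxr-/- mice and a difference of 1.09. Arrays of the same number did not pair, since 4 of 22 pairs had a correlation of deviations over 0.1 (-0.24 to 0.35) and 5 were best with their own number, so only a number is shared. Over all probes, calls for PCN fell from 259 to 48 in WT in either batch alone, and from 353 to 4 and 155 in Pxr-/- mice, where they were 230 without Pxr-/- PCN replicate 5, 88 with the fibroblast covariate and 115 with the smooth muscle covariate. Calls for the difference went from 29 to 3 and 0 in single batches (in the latter, 2272 probes had an unadjusted limma p under 0.05), 16 with slide as a fixed block and 19 without Pxr-/- PCN replicate 3, and for the genotype average from 149 to 84 and 53 in single batches and 241 with slide as a fixed block. Single batches hold fewer arrays, 2 or 3 per group. Median signals of 74 to 106.5 over a background of 19 to 28.5 limit what can be said of dim probes, such as those of Abca6.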
